A study of Phalaenopsis aphrodite subsp. formosana with 4 samples.

Results

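miR167 is a family of plant microRNAs, and it was described here in small RNA libraries of the moth orchid Phalaenopsis aphrodite subsp. formosana. Its members were all deposited sequences whose best match among the known miRNAs of miRBase version 15 is named miR167, whatever its letter or species, a choice that uses the name of the match and no measured level. They numbered 860 of 11129 unique sequences over the 4 libraries and held 104528 reads, 10.4% of all reads matched to a known miRNA and rank 4 of 368 families. By library, 190 of 4831 sequences were miR167 in flower buds (FB), 134 of 3288 in stalks (S), 490 of 4981 in low temperature-treated leaves (CL) and 481 of 4207 in untreated leaves (NL).

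All plants were of strain M1624 and each condition was sequenced as 1 library. FB, S and CL came from plants of the low temperature group, a regime that brings on the flower stalk. The regime was 24°C by day and 18°C by night and lasted 2 months, and samples taken earlier had less of it. For flower buds, the temperature after month 2 is not stated. NL came from plants at 32°C and 27°C, which stay vegetative. Flower buds were harvested at month 3.5 and stalks at months 1.5 and 2, whereas leaves of both groups were collected repeatedly between month 0 and month 2. Which of these times went into each leaf library is not stated. The range of leaf ages and, in CL, of time at low temperature is therefore not known. Several independent lines were harvested at each time and plants were picked from them at random, but how many went into a library is not stated. Small RNAs were cut from a gel at 20 to 25 nt, and the files hold no messenger RNA, so the tissue labels could not be set against marker genes.

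Plant miRNAs are cut from hairpin precursors by DICER-LIKE1, mostly as 21 nt duplexes, and the strand that is kept guides an ARGONAUTE protein to transcripts with a near-complementary site. In Arabidopsis, miR167 guides cleavage of the transcripts of the auxin response factors ARF6 and ARF8, which act in the development of petals, stamens and the gynoecium. The base at the 3′ end and the length of a family's members often differ between the genes that encode them, and in Arabidopsis 22 nt miRNAs are known as triggers of secondary small RNAs from their targets.

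The sequences that carry most of the reads are shown first because the length classes turned out to differ in bases as well as in length. In every sequence printed, capitals mark the read's own seed (its bases 2 to 8) and every base placed after position 20 of the main 22 nt form. The most abundant sequence of FB, CL and NL was the main 22 nt form, and the most abundant of S was the main 21 nt form, which is identical to the known Arabidopsis miRNA ath-miR167a. A second 22 nt form differs from the main one in its last base. The 20 nt form and the 21 nt form ending in G share the first 20 bases with all of them, which are called the core below.
main 22 nt form: uGAAGCUGccagcaugaucuGA
second 22 nt form: uGAAGCUGccagcaugaucuGU
main 21 nt form: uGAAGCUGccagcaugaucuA
21 nt form ending in G: uGAAGCUGccagcaugaucuG
20 nt form: uGAAGCUGccagcaugaucu

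The seed is the same in all of these sequences. At position 21 the main 21 nt form has A where the 22 nt forms have G. How the main 21 nt form arises was not tested. No genome was used here, so the genes that encode the forms and their coordinates were not analysed.

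RPM below stands for reads per 1000000 clean reads, which are the reads of at least 18 nt that were left once adaptors and poor reads had been removed. Libraries were compared by dividing their RPM, and brackets after such a ratio hold its exact conditional binomial 95% interval. A ratio is called higher above 1.5 and lower below 0.667, in both cases with an interval that leaves out 1. No condition has a replicate, and a ratio therefore sets 1 library against another and cannot speak for the conditions. The intervals, Wilson 95% intervals in the case of shares, reflect counting error alone, and PCR can give several reads from 1 molecule. Reads below 18 nt were 17.6% of high-quality reads in FB against 5.60% in S, 9.05% in CL and 5.40% in NL, and matched reads summed to 265352 in FB, 106142 in S, 404345 in CL and 226523 in NL. The part of these differences in the results was not tested.

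miR167 was abundant in leaves of both temperatures and scarcer in the reproductive tissues. It had 6033 reads in FB, 4777 in S, 49851 in CL and 43867 in NL, which are 955 RPM in FB, 596 in S, 6738 in CL and 6091 in NL. It took 2.27% (2.22 to 2.33) of matched reads in FB, 4.50% (4.38 to 4.63) in S, 12.3% in CL and 19.4% in NL, and had rank 7 among families in FB and S, 3 in CL and 2 in NL. Against CL the level was lower in FB, at a ratio of 0.142 (0.138 to 0.146), and lower in S, at 0.0885 (0.0859 to 0.0911). The ratio of S to CL depends strongly on the denominator in its size, at 0.365 relative to all matched reads, 0.210 with the median ratio of 45 abundant sequences and 0.188 with TMM factors (trimmed means of the ratios of all matched sequences), and stays past the lower limit with each. Of 28 families with at least 100 reads over FB and CL the ratio of miR167 was the lowest, with a median of 0.939 over the families, and of 25 families in S and CL it had rank 3 from the lowest, with a median of 0.472. Between the leaf libraries the ratio of CL to NL was 1.11 (1.09 to 1.12), inside both limits, where the median over 25 families was 1.40. The ratio of FB to S was 1.60 (1.54 to 1.66), a call that rests on the denominator, since relative to all matched reads it was 0.505 and with TMM factors 0.730. The median over 26 families was 2.66 here, with miR167 at rank 10 from the lowest, so that most families had a higher ratio. Relative to matched reads the ratio of CL to NL was 0.637, which is past the lower limit.

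The 2 length classes had opposite profiles over the tissues. Reads of 22 nt numbered 3086 in FB, 875 in S, 44890 in CL and 39718 in NL, or 489 RPM in FB, 109 in S, 6067 in CL and 5515 in NL. Reads of 21 nt numbered 2586 in FB, 3726 in S, 2116 in CL and 1576 in NL, or 409 RPM in FB, 465 in S, 286 in CL and 219 in NL. The 22 nt class was thus highest in both leaf libraries and lowest in S, and the 21 nt class was highest in S and lowest in the leaf libraries. As shares of miR167 reads, 22 nt made up 51.2% (49.9 to 52.4) in FB, 18.3% (17.2 to 19.4) in S, 90.0% (89.8 to 90.3) in CL and 90.5% (90.3 to 90.8) in NL. The share of 21 nt was 42.9% (41.6 to 44.1) in FB, 78.0% (76.8 to 79.2) in S, 4.24% (4.07 to 4.43) in CL and 3.59% (3.42 to 3.77) in NL. These shares need no denominator outside the family, and by them the order of the libraries is S, FB, CL, NL for 21 nt, with no overlap of the intervals between neighbours. For 22 nt the intervals of CL and NL overlap slightly.

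**Figure D1:**
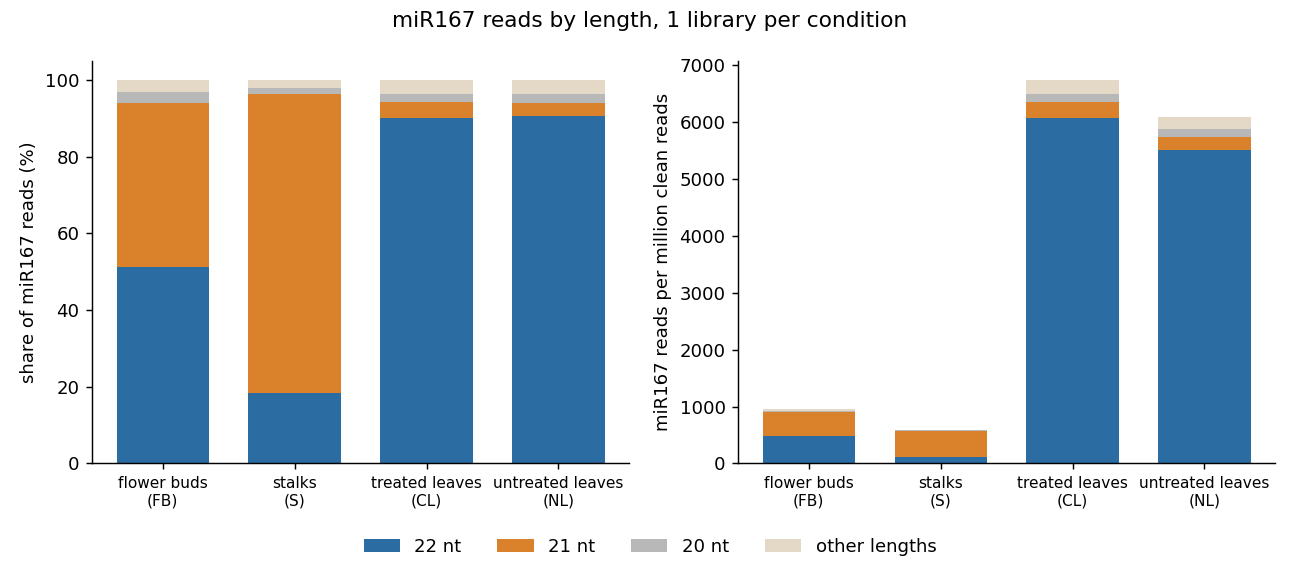
Share of miR167 reads of each length in percent (left) and the same reads as RPM (right), for the 4 libraries, with 1 bar per library and 1 library per condition. The 22 nt class fills 51.2% of the bar in FB and 18.3% in S, against 90.0% in CL and 90.5% in NL, and the 21 nt class is the larger one only in S.

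In RPM, the 22 nt class was lower in FB than in CL, at a ratio of 0.0805 (0.0776 to 0.0835), and lower in S than in CL, at 0.0180 (0.0168 to 0.0192), or 0.0743 relative to matched reads. It was higher in FB than in S, at 4.47 (4.15 to 4.83), which fell short of the limit relative to matched reads (1.41). The ratio of CL to NL was 1.10 for this class, and 0.633 relative to matched reads. For 21 nt the ratio of S to CL was 1.63 (1.54 to 1.72), called higher, that of FB to CL was 1.43 (1.35 to 1.52), that of FB to S was 0.881 (0.837 to 0.926) and that of CL to NL was 1.31 (1.22 to 1.40), the last 3 inside the limits. Relative to matched reads the 21 nt ratio of S to CL was 6.71, and it was past a limit also for FB over CL (1.86) and for FB over S (0.278). Of these ratios, 3 rest on 1 sequence: without the main 21 nt form the ratio of S to CL was 0.149, that of FB to CL 0.226 and that of FB to S 1.51, in each case on the other side of 1, while that of CL to NL was 1.17.

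The other lengths were minor. The 20 nt class had 175 reads in FB, 78 in S, 1043 in CL and 988 in NL, or 2.90% of miR167 reads in FB, 1.63% in S, 2.09% in CL and 2.25% in NL. All remaining lengths, from 18 to 27 nt, together had 186 reads in FB, 98 in S, 1802 in CL and 1585 in NL. The ratio of S to CL was 0.0690 (0.0541 to 0.0870) for 20 nt and that of FB to CL was 0.197 (0.166 to 0.231), both called lower. Reads that stop before position 21 made up 3.96% (3.50 to 4.49) of placed reads in FB, 1.70% (1.37 to 2.11) in S, 3.33% (3.18 to 3.49) in CL and 3.67% (3.49 to 3.85) in NL, so that S had the fewest shortened reads.

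Within each library, 3 sequences accounted for nearly all of this pattern. The main 22 nt form, the second 22 nt form and the main 21 nt form together held 86.6% of miR167 reads in FB, 89.8% in S, 88.0% in CL and 87.9% in NL. The main 22 nt form had 2423 reads in FB, 492 in S, 33605 in CL and 30209 in NL, which are 384 RPM in FB, 61.4 in S, 4542 in CL and 4195 in NL. Its ratio was 0.0845 (0.0810 to 0.0880) for FB over CL, 0.0135 (0.0123 to 0.0148) for S over CL and 6.25 (5.67 to 6.90) for FB over S. Relative to matched reads the last 2 were 0.0558 and 1.97, with the same calls. Between the leaf libraries the ratio of CL to NL was 1.08 (1.07 to 1.10), inside the limits, and 0.623 relative to matched reads.

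The second 22 nt form had 495 reads in FB, 306 in S, 9590 in CL and 7989 in NL, which are 78.4 RPM in FB, 38.2 in S, 1296 in CL and 1109 in NL. It was lower in FB than in CL at 0.0605 (0.0551 to 0.0662) and lower in S than in CL at 0.0295 (0.0262 to 0.0330). Its ratio of FB to S was 2.05 (1.78 to 2.37), which turned to 0.647 relative to matched reads. The ratio of the main to the second 22 nt form, which needs no denominator, was 4.89 (4.44 to 5.40) in FB, 1.61 (1.39 to 1.86) in S, 3.50 (3.43 to 3.58) in CL and 3.78 (3.69 to 3.88) in NL. The 22 nt forms therefore did not keep 1 ratio over the tissues: the second form took its largest share of the pair in stalks and its smallest in flower buds, and even the intervals of the leaf libraries did not overlap.

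The main 21 nt form had 2305 reads in FB, 3490 in S, 658 in CL and 364 in NL, which are 365 RPM in FB, 435 in S, 88.9 in CL and 50.5 in NL. It was the form with the opposite profile, high in both reproductive tissues and low in both leaf libraries. Its ratio was 4.10 (3.76 to 4.48) for FB over CL and 4.90 (4.50 to 5.33) for S over CL, both called higher, and 0.838 (0.795 to 0.883) for FB over S, inside the limits. Relative to matched reads FB was lower than S at 0.264, while the ratios to CL stayed higher at 5.34 for FB and 20.2 for S. In CL against NL it was called higher at 1.76 (1.55 to 2.01), but the ratio was 1.01 relative to matched reads. Set against the main 22 nt form of the same library, it had 0.951 (0.898 to 1.01) reads per read in FB, 7.09 (6.45 to 7.81) in S, 0.0196 (0.0181 to 0.0212) in CL and 0.0120 (0.0108 to 0.0134) in NL. By this ratio, which no denominator changes, the low temperature-treated leaves lay above the untreated leaves, and both lay far below the buds and the stalks.

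**Figure D2:**
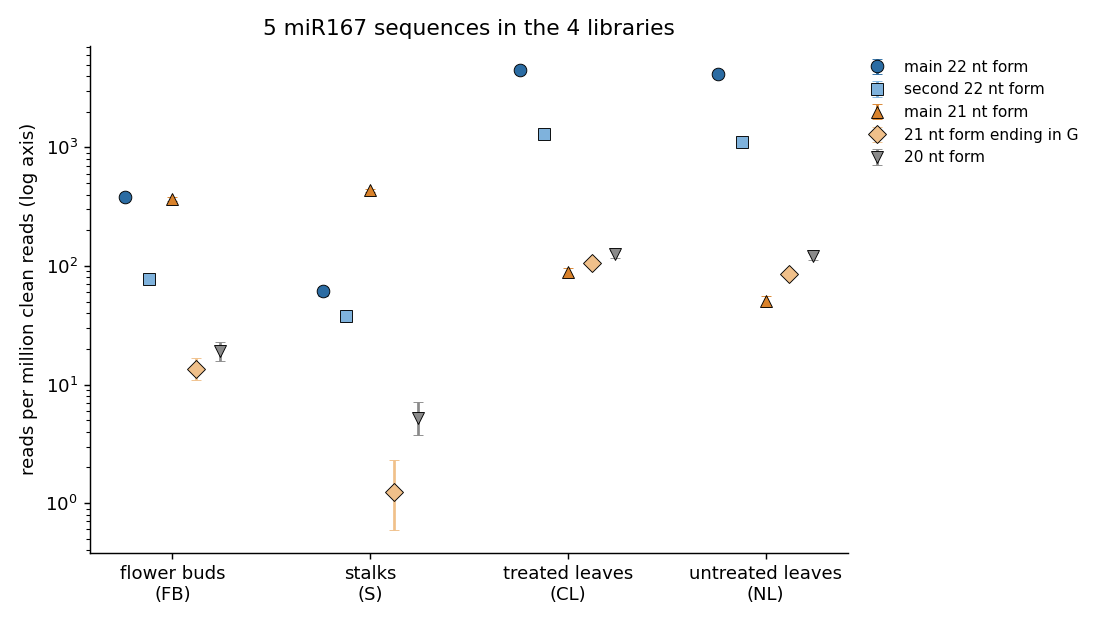
Level in RPM, on a log axis, of 5 miR167 sequences in the 4 libraries. Points are single libraries and bars are exact Poisson 95% intervals of the read count, often smaller than the point. The main 21 nt form lies at 365 in FB and 435 in S against 88.9 in CL and 50.5 in NL, while the main 22 nt form lies at 384 in FB and 61.4 in S against 4542 in CL and 4195 in NL.

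The 21 nt form ending in G, which is the main or second 22 nt form without its last base and is identical to the known rice miRNA osa-miR167d, went with the 22 nt forms and not with the other 21 nt form. It had 86 reads in FB, 10 in S, 784 in CL and 617 in NL, with a ratio of 0.128 (0.102 to 0.161) for FB over CL and 0.0118 (0.00562 to 0.0218) for S over CL. The 20 nt form, whose bases all the longer forms contain, had 121 reads in FB, 42 in S, 931 in CL and 871 in NL. Its ratio was 0.152 (0.125 to 0.184) for FB over CL and 0.0416 (0.0298 to 0.0567) for S over CL.

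**Figure D3:**
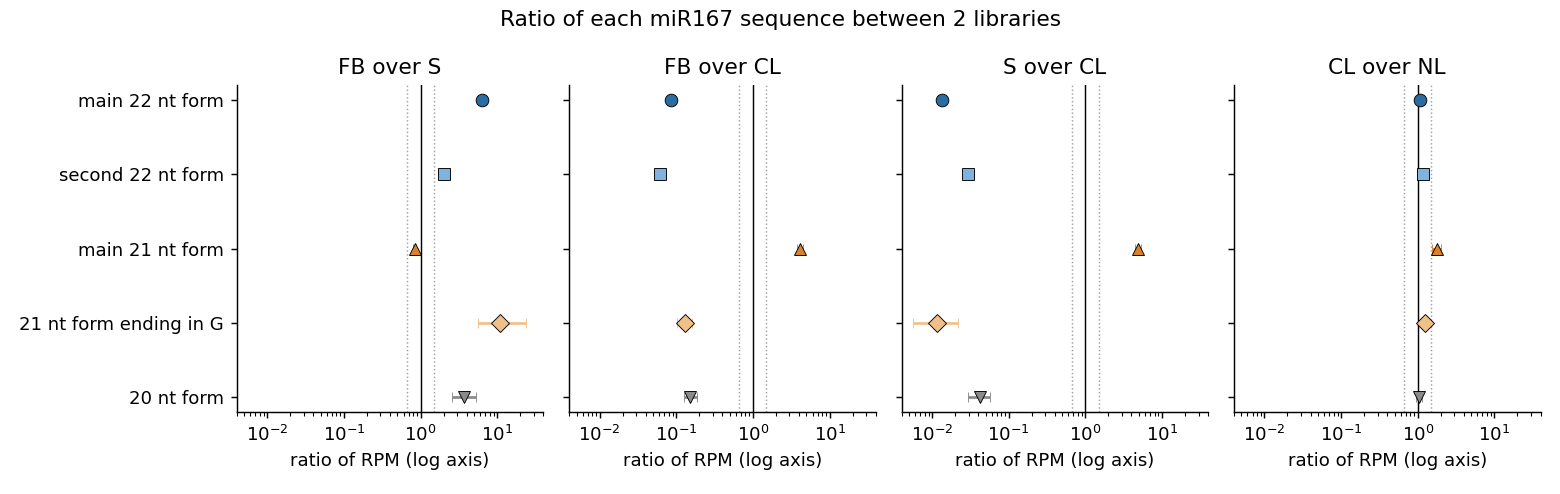
Ratio of RPM between 2 libraries, on a log axis, for 5 miR167 sequences, with exact conditional binomial 95% intervals. The solid line marks a ratio of 1 and dotted lines the limits of 0.667 and 1.5. The main 21 nt form lies at 4.10 for FB over CL and 4.90 for S over CL, where the other sequences lie below the lower limit.

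Every member, the most abundant sequences included, was then placed without gaps on the main 22 nt form, allowing at most 2 substitutions. The main forms hold most of these reads, so the shares below largely restate them. Between 99.5% and 99.9% of miR167 reads per library could be placed, and between 95.6% and 98.1% reached position 21. Of the reads that reached it, 42.8% (41.5 to 44.0) had A there in FB, 80.1% (79.0 to 81.2) in S, 1.50% (1.39 to 1.61) in CL and 0.946% (0.858 to 1.04) in NL. G was found in 56.4% in FB, 18.6% in S, 98.3% in CL and 98.9% in NL. U was at most 1.11% and C at most 0.191% in any library.

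In FB and S nearly all 21 nt reads had A at position 21, and in the leaf libraries most had G. Among 21 nt reads, A was at position 21 in 93.1% (92.1 to 94.0) in FB and 98.1% (97.6 to 98.5) in S, but in 32.9% (30.9 to 34.9) in CL and 24.6% (22.5 to 26.8) in NL. Among 22 nt reads, G was at position 21 in 99.1% in FB, 94.2% in S, 99.8% in CL and 99.8% in NL. A count by length alone therefore mixes different 3′ ends in the 21 nt class of leaves. All reads with A at position 21 numbered 2466 in FB, 3756 in S, 721 in CL and 399 in NL, with a ratio of 4.81 (4.44 to 5.22) for S over CL, where the ratio of the whole 21 nt class was 1.63. Reads with G and then A numbered 2606 in FB, 514 in S, 35925 in CL and 32270 in NL, and reads with G and then U numbered 537 in FB, 345 in S, 10428 in CL and 8659 in NL.

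After G, the base at position 22 was A in 82.8% (81.5 to 84.1) in FB, 59.8% (56.5 to 63.1) in S, 77.4% (77.0 to 77.7) in CL and 78.7% (78.3 to 79.1) in NL, and nearly all others had U. Most reads of a line ended at the same position. Reads with A at position 21 ended there in 98.9% in FB, 98.3% in S, 97.1% in CL and 96.0% in NL, and reads with G then A ended at position 22 in 98.9% in FB, 98.6% in S, 98.2% in CL and 98.3% in NL. Reads with G then U ended at position 22 less often, in 96.3% (94.3 to 97.6) in FB, 92.2% (88.9 to 94.6) in S, 95.9% (95.5 to 96.3) in CL and 96.2% (95.8 to 96.6) in NL, and in S 5.51% (3.55 to 8.44) of them ended at position 24. G lines that stopped 1 base short, at position 21, were 3.20% (2.65 to 3.86) in FB, 1.60% (0.958 to 2.67) in S, 1.88% (1.76 to 2.00) in CL and 1.73% (1.61 to 1.86) in NL.

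Longer reads are shown because they carry the bases past the ends of both 22 nt forms. The most abundant 23 nt reads extend the main 22 nt form by A or U, and the most abundant 24 nt read extends the second 22 nt form.
23 nt, extended by A: uGAAGCUGccagcaugaucuGAA
23 nt, extended by U: uGAAGCUGccagcaugaucuGAU
24 nt: uGAAGCUGccagcaugaucuGUUC

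The first had 12 reads in FB, 4 in S, 286 in CL and 229 in NL, and the second had 15 in FB, 1 in S, 253 in CL and 223 in NL. The 24 nt sequence had 11 reads in FB, 16 in S, 213 in CL and 148 in NL, and was the only one of these with more reads in S than in FB. In RPM its ratio of FB to S was 0.872 (0.366 to 2.00), an interval that holds 1. Reads that hold the whole of a form and go on past it were 3.88% in FB, 7.83% in S, 4.08% in CL and 3.77% in NL for the second 22 nt form, against 1.10% in FB, 1.01% in S, 1.76% in CL and 1.66% in NL for the main 22 nt form. For the main 21 nt form they were 1.16% in FB, 1.61% in S, 2.66% in CL and 3.45% in NL.

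In contrast to the 3′ end, the 5′ end hardly varied, and the bases of the seed were rarely changed. Reads started at position 1 in 98.4% in FB, 98.8% in S, 98.6% in CL and 98.6% in NL of placed reads. The seed bases of the main forms, GAAGCUG, were sought at any place in a read. They were found in 98.3% of all miR167 reads in FB, 98.3% in S, 98.5% in CL and 98.5% in NL. These shares include reads with a shifted start, whose own seed differs, and are therefore upper bounds for reads with this seed. Starts are shown because a shifted start changes the seed: the most abundant read that begins 1 base later and the most abundant that begins 1 base earlier have other bases in capitals.
start 1 base later: gAAGCUGCcagcaugaucuGA
start 1 base earlier: cUGAAGCUgccagcaugaucuG

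The shortened one is 21 nt long but belongs to the 22 nt line by its 3′ end, with 33 reads in FB, 4 in S, 452 in CL and 380 in NL. In NL it had more reads than the main 21 nt form, which had 364.

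Substitutions inside the core were rare, and bases 1 to 20 were exact in 92.0% of reads in FB, 93.9% in S, 93.7% in CL and 93.4% in NL. Each substitution is written as the base of the main 22 nt form, the position counted from 1 at its 5′ end, and the base of the read. Pooled over the libraries, and so mainly in leaves, the most frequent change of the main 22 nt form was A11C, with 5 reads in FB, 0 in S, 140 in CL and 140 in NL, or 0.206% of the reads of the unsubstituted form in FB, 0.417% in CL and 0.463% in NL. A library with 0 reads of a sequence is read as holding up to 3. In FB the leading change was C9U, with 13 reads. In S only 10 reads differed from this form by a substitution, too few to name a leading change. A3C had 3 reads in FB, 2 in S, 112 in CL and 81 in NL, and A14C had 8 in FB, 0 in S, 76 in CL and 87 in NL. Each of these had fewer reads than the 20 nt form in every library.

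Few reads matched a known miR167 star, the other strand of the duplex. A best match to a star, osa-miR167a*, was found for 3 sequences, with 1 read in FB, 0 in S, 1 in CL and 1 in NL. At this depth no length or tissue can be compared for it.

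Most members were rare. Of the 860 sequences, 512 were read once over the 4 libraries and 582 were found in 1 library, whereas the 32 found in all 4 held 95.9% of the reads. The 19 sequences with at least 100 reads over the 4 libraries held 96.0%. Just inside this limit lay sequences with 108, 105 and 105 reads, and just outside it sequences with 90, 90 and 85.

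Calls per sequence were made for sequences with at least 100 reads over the 2 libraries compared. A sequence can reach this minimum through its CL reads alone, and its lower call is then set by the filter. The sequence with A11C, for example, had 0 reads in S and 140 in CL. Many of the tested miR167 sequences are shortened, extended or substituted copies of the 22 nt forms, so their calls are not independent. In S against CL, 13 of 14 tested miR167 sequences were lower, where 77.7% of all 139 tested sequences were lower, and the main 21 nt form alone was higher, where 7.19% of all were higher. In FB against CL, 13 of 14 were lower, against a background of 33.3% of 165, and again the main 21 nt form was the 1 that was higher, against 23.0%. The median ratio of the miR167 sequences was 0.0230 for S over CL, beside 0.220 over all tested sequences, and 0.0841 for FB over CL, beside 0.937. In FB against S, 3 of 4 were higher, close to the background of 71.9%, and 0 of 4 were lower, where 8.26% of all were, but relative to matched reads 1 was higher, against 43.0% of all, and 2 were lower, against 38.0%. Between CL and NL, 1 of 18 was higher, the main 21 nt form, below the background of 40.3%, and 0 of 18 were lower, with 13.0% over all, while relative to matched reads 0 were higher, against 24.7% of all, and 10 were lower, against 39.6%. Here the median ratio of miR167 was 1.13 beside 1.35 over all tested sequences.

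In all other families together, 22 nt reads made up 1.08% in FB, 1.62% in S, 1.57% in CL and 1.37% in NL, and 21 nt reads between 80.6% and 85.4%. miR167 gave 52.4% of all matched 22 nt reads in FB, 34.8% in S, 89.0% in CL and 94.1% in NL. Among families with at least 100 reads in a library, its 22 nt share ranked first of 21 in FB, first of 22 in CL and first of 20 in NL, and second of 18 in S after miR1318, at 55.2% (48.0 to 62.2). miR1318 was also next in CL, at 62.6%, and in NL, at 65.4%, while in FB the next was miR319, which acts on TCP transcription factors, at 14.6%. Families with fewer than 100 reads were left out of these ranks. In FB they include miR1318, with 69 reads and a 22 nt share of 50.7% (39.2 to 62.2). They also include miR829, with 52 reads and 63.5% (49.9 to 75.2), so miR167 did not stand alone there.

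**Figure D4:**
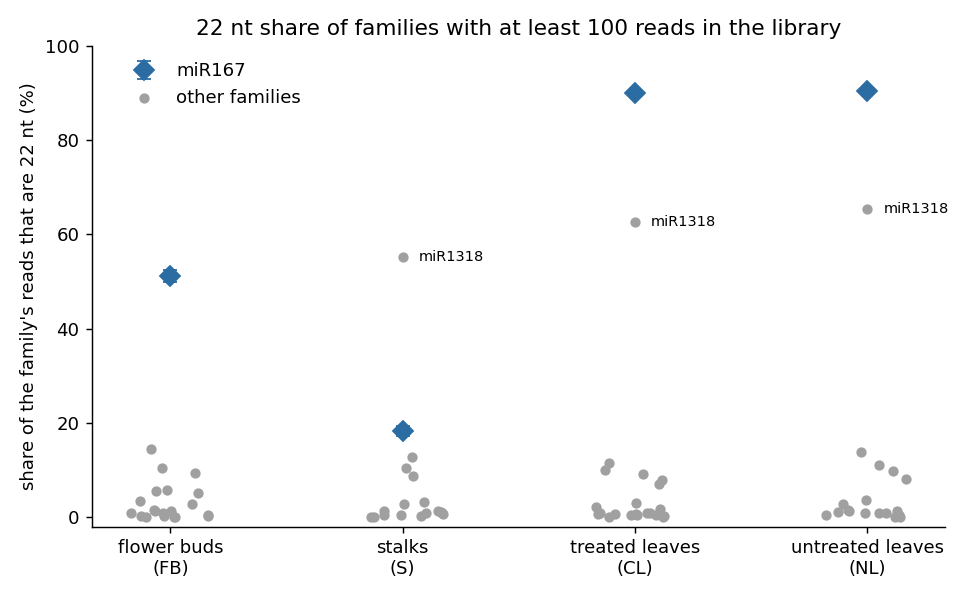
Share of 22 nt reads in percent for each family with at least 100 reads in the library, with miR167 as diamonds (Wilson 95% intervals, smaller than the symbol in the leaf libraries) and other families as grey points, spread sideways at random. miR167 lies at 51.2% in FB and 18.3% in S against 90.0% in CL and 90.5% in NL, and miR1318 lies at 55.2% in S.

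The 22 nt share was then compared between libraries for each family with at least 100 reads in both, as a description, since no replicate allows a test of the difference between families. The 22 nt share of miR167 in S differed from that in CL by -71.7 percentage points, where the 17 other families ranged from -7.44 (miR1318) to 5.75 (miR171, which acts on GRAS transcription factors). That in FB differed from CL by -38.9 points, where the others ranged from -4.43 (miR162, which acts on DICER-LIKE1) to 3.51 (miR529). In FB against S it was 32.8 points higher, where the others ranged from -6.97 to 2.26. Between CL and NL it differed by -0.494 points, within the range of the others, from -2.75 to 3.27.

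Within the auxin pathway, miR160 acts on other auxin response factors, miR393 on the TIR1-type auxin receptors, and miR390 starts the small RNAs that act on ARF3 and ARF4. These families had far fewer reads than miR167. miR160 had 94 reads in FB, 9 in S, 33 in CL and 16 in NL, with a ratio of 3.34 (2.22 to 5.12) for FB over CL, where miR167 had 0.142. miR390 had 263 reads in FB, 239 in S, 338 in CL and 367 in NL, with ratios to CL of 0.911 (0.773 to 1.07) for FB and 0.653 (0.551 to 0.773) for S. miR393 had 10 reads in FB, 21 in S, 18 in CL and 32 in NL, too few for a call at the limit of 100 reads.

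The families most like miR167 in profile were sought by the largest difference in log2 RPM at any of the 4 libraries, each profile centred on its own mean over the libraries, among 35 families with their lengths pooled. The closest to miR167 as a whole was miR396, known to act on growth-regulating factors, with a largest difference of 0.81, followed by miR156 (1.21) and miR157 (1.37). The closest to the 22 nt class was again miR396 (1.37), with 70 reads in FB, 28 in S, 232 in CL and 269 in NL. The closest to the 21 nt class was miR529, with 171 reads in FB, 321 in S, 174 in CL and 99 in NL and a largest difference of 0.22. It was followed by miR1023 (0.51) and miR2916 (0.58). The nearest profiles of the 2 length classes thus belonged to different families. The 21 nt class mixes different 3′ ends in leaves, and the main 21 nt form was not compared in this way.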

How the data were processed

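The authors sequenced gel-cut small RNA on the Illumina platform, removed adaptors, poor reads, polyA reads and reads below 18 nt, collapsed identical reads and aligned them by BLAST to miRBase 15. For BLAST no version is given in the sources used here. Each table deposited by the authors holds the count of reads of each matched sequence, its best match, and its mismatches (at most 2) and gaps (at most 5 in sum with the mismatches), with the alignment score of BLAST, which was deposited as BLAST gave it and was not used. Totals of clean reads came from the paper. Small RNAs without a match were not used here.

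From these counts, RPM, ratios and shares were computed with Python 3.11.15, numpy 2.4.6, scipy 1.17.1 and pandas 2.3.3. edgeR 4.0.16 in R 4.3.3 gave TMM factors only. Both the intervals and the call rule were tested on simulated reads with known ratios. Those reads varied by counting error alone, as the intervals assume, so PCR and differences between libraries were not covered. Placement needed an overlap of at least 15 bases, and profiles used a pseudocount of 1 read. Sequences were named by rule: the 10 most abundant, the most abundant of each length and library, those of the study's supplementary tables, the leading substitutions, shifted starts and star. The members and lists were chosen with earlier results of these data known.

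The alternatives, 140 values in all, changed the denominator (all matched reads, TMM factors, the median ratio of 45 abundant sequences), the matches kept, the minimum reads, the ratio limit, or left out the most abundant sequence.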

Additional observations from a re-analysis of the deposited data

How the results depend on the processing

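Of 84 alternative values of ratios, 62 kept their side of 1 and their call, and 5 kept the call but crossed 1, all for CL over NL (0.938 and 0.848 over all lengths and 0.932 and 0.844 for 22 nt with the median ratio and TMM, and 0.752 for 21 nt relative to matched reads). Of 24 values of shares 8 stayed inside the interval of the share, and of 32 counts 18 stayed within 1.5 times. Relative to clean reads, the denominators shifted log2 ratios by -1.67 (matched reads), -1.22 (median ratio) and -1.13 (TMM) for FB over S, by 0.38, 0.03 and -0.05 for FB over CL, by 2.04, 1.25 and 1.09 for S over CL, and by -0.80, -0.24 and -0.38 for CL over NL. The ratio of FB to S over all lengths became 0.505, 0.687 and 0.730 with these denominators, 1.07 without the main 22 nt form, and was not called at a limit of 2 (1.60). For 21 nt, FB over S became 0.278, 0.377 and 0.401, and 1.51 without the main 21 nt form. For 22 nt it was 1.41 relative to matched reads. Relative to matched reads, CL over NL was 0.637 over all lengths and 0.633 for 22 nt. For 21 nt, FB over CL was 1.86 relative to matched reads, 1.90 with at most 1 mismatch or gap and 0.226 without the main 21 nt form, and S over CL was 0.149 without it and not called at a limit of 2 (1.63).

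With at most 1 mismatch or gap, the 21 nt share was 44.8% in FB, 79.9% in S, 3.37% in CL and 2.68% in NL, and the 22 nt share 93.9% in CL and 94.5% in NL. Without the main 22 nt form, the most abundant sequence of the family, the 21 nt share was 71.6% in FB, 87.0% in S, 13.0% in CL and 11.5% in NL, and the 22 nt share 18.4% in FB, 8.94% in S, 69.5% in CL and 69.6% in NL. With at least 10 reads per sequence the 22 nt share was 90.5% in CL and 91.0% in NL.

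Called sequences with a minimum of 20 reads numbered 7 higher and 1 lower of 14 for FB over S (64.7% and 5.57% of all sequences), 3 and 41 of 45 for FB over CL (21.4% and 27.5%), and 4 and 39 of 43 for S over CL (6.99% and 66.2%), with 3 higher of 68 for CL over NL (31.6%). Here too a sequence can pass the minimum through its CL reads alone. Relative to matched reads the called sequences were 1 higher and 2 lower for FB over S, and 0 higher and 10 lower for CL over NL. With the median ratio, 1 was lower for FB over S and 0 were higher for CL over NL, as were 0 at a limit of 2.

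No paired analysis was possible because each condition has 1 library. For the same reason no library was left out in turn. Depth limits the sequences with few reads in S.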

Other observations

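The following values were singled out after they were seen. Sequences that differ from the main 22 nt form by a C-to-U change were more frequent in flower buds than in leaves. Summed over the changes, they had 32 reads per 2423 of the form in FB (1.32%, 0.937 to 1.86), 2 per 492 in S (0.407%, 0.112 to 1.47), 73 per 33605 in CL (0.217%, 0.173 to 0.273) and 88 per 30209 in NL (0.291%, 0.237 to 0.359). For the main 21 nt form the same changes had 31 reads in FB (1.34%), 44 in S (1.26%), 4 in CL (0.608%) and 2 in NL (0.549%). The change C9U alone had 13 reads in FB, 1 in S, 16 in CL and 23 in NL on the main 22 nt form, and 13 in FB, 18 in S, 0 in CL and 2 in NL on the main 21 nt form. A-to-C changes of the main 22 nt form did not have this order, at 0.908% in FB, 0.610% in S, 1.10% in CL and 1.18% in NL. Of 7 other families with enough reads, 3 (miR166, miR528 and miR535) had an interval for C-to-U changes per C of the most abundant sequence in FB above those of CL and NL, and 4 (miR156, miR164, miR168 and miR894) did not. This frequency per C cannot be set beside the summed percentages of miR167 above. Per C, over 4 of its C positions, miR167 had 0.279% in FB, 0.102% in S, 0.0476% in CL and 0.0604% in NL. In miR166 the frequency per C was 0.608% in FB, 0.707% in S, 0.204% in CL and 0.241% in NL. By contrast, miR156 had 0% in FB and S, 0.0325% in CL and 0.0161% in NL, and miR164 had 0.218% in FB, 0.380% in S, 0.347% in CL and 0.349% in NL. No cause was tested.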
